A study of Mus musculus with 14 samples.

Results

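The data described here follow mouse embryos made by somatic cell nuclear transfer (SCNT) from the 1-cell to the 2-cell stage. In SCNT an oocyte receives the nucleus of a body cell in place of its own chromosomes. The comparison was fixed by the labels: 2 libraries of SCNT 1-cell embryos, pools of 36 and 36 embryos, against 2 libraries of SCNT 2-cell embryos, pools of 40 and 40. These are 4 of the 14 libraries of the series. Both groups had donor nuclei from cumulus cells, labelled (C57BL/6J x CAST/EiJ) F1, in oocytes of B6D2F1 females, and no treatment was listed. The protocol in the labels has cumulus cells taken from BDF1 females, and this conflict could not be settled. Embryos from in vitro fertilisation (IVF) were used for comparison at both stages, with C57BL/6J oocytes and CAST/EiJ sperm. The oocytes of SCNT and IVF embryos thus differed in strain, and a difference between the 2 kinds of embryo cannot be told apart from a difference between the oocyte strains. Groups of 2 libraries each of donor cumulus cells and of SCNT 2-cell embryos with overexpressed Kdm4d, which removes methyl groups from lysine 9 of histone H3, or its mutant form, serve as description. Hours of collection are not stated in the labels, and nothing says that the 2 libraries of a group came from separate experiments. P-values thus measure only the spread between libraries within groups, taken as 1 estimate per gene over all 7 groups.

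A fertilised or reconstructed egg starts with RNA and protein laid down in the growing oocyte. In the mouse, most of this maternal RNA is degraded between meiotic maturation and the 2-cell stage, while the embryo's own genome is transcribed in a minor wave in the 1-cell embryo and a major wave in the 2-cell embryo. After nuclear transfer the genome to be activated comes from a differentiated cell, whose chromatin must be remodelled by factors of the oocyte. Cumulus cells, which surround the oocyte in the follicle, are a common source of donor nuclei. Transcripts seen in a 2-cell SCNT embryo can therefore be oocyte RNA that is still present, RNA from newly activated genes, or RNA of genes that were on in the donor cell.

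The values are FPKM, fragments per kilobase of transcript scaled to the number of mapped fragments, in which a level is relative to all RNA of that library. Sums of FPKM over genes were 315792 and 322575 in the 1-cell and 187205 and 182840 in the 2-cell libraries, and 9028 and 9032 genes against 10567 and 10495 reached 1 FPKM. Relative to the first 1-cell library at 1, sequencing depth was 0.955 in the second 1-cell library and 0.843 and 0.903 in the 2-cell libraries. Spearman's rho across genes between replicates was 0.987 at the 1-cell and 0.974 at the 2-cell stage. Depth was lower in the Kdm4d (0.527 and 0.431) and mutant Kdm4d libraries (0.479 and 0.515), with rho of 0.958 and 0.932. In these libraries 9856 and 9658 (Kdm4d) and 10188 and 10790 genes (mutant Kdm4d) reached 1 FPKM, against 9914 and 9997 in donor libraries. Of 72 listed maternal oocyte transcripts, markers of egg cytoplasm, 70 were tested. These 70 summed to 39550 and 41557 FPKM at the 1-cell and 8004 and 9655 at the 2-cell stage, against 211 and 189 in donor cells. None of the 70 was listed at 0 in both libraries of either SCNT group. Changes are given as differences of log2(FPKM + 1), which understates changes of genes near 0. The median difference over all tested genes was 0.06. It was −0.07 after quantile normalization and 0.54 when all libraries were scaled to the same sum of FPKM, so directions can depend on the scale. Of 9017 genes called as changed, 93 changed sign after quantile normalization and 468 with equal sums. Some of these changes were not small, as for Oog3 and Psma7 below. In pooled embryos, fewer cells holding a transcript and less of it per cell cannot be told apart. The cDNA kit primes on poly(A) tails, so a change in the amount of an mRNA cannot be told apart from a change in its tail.

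Of 13452 tested genes, 4772 rose (35.5%), 4245 fell (31.6%) and 4435 did not pass an adjusted p of 0.05 in limma, so that 67% changed in 1 direction or the other. In IVF embryos 30.4% rose and 37.2% fell. At 1 log2 unit or more, 3172 genes rose and 2598 fell. At 3 units or more these numbers were 377 and 219, and at 5 units or more 27 and 9. The libraries of the 2 stages did not overlap for 86.4% of genes, with the 2-cell libraries higher for 6118 and lower for 5506. After quantile normalization 30.8% rose and 35.3% fell, and with equal sums of FPKM 50.3% rose and 17.5% fell. The genes that rose supplied 6.35% and 6.31% of all FPKM in the 1-cell libraries and 41.7% and 38.6% in the 2-cell libraries. The genes that fell supplied 80.0% and 80.2% at the 1-cell and 35.9% and 38.9% at the 2-cell stage.

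**Figure D1:**
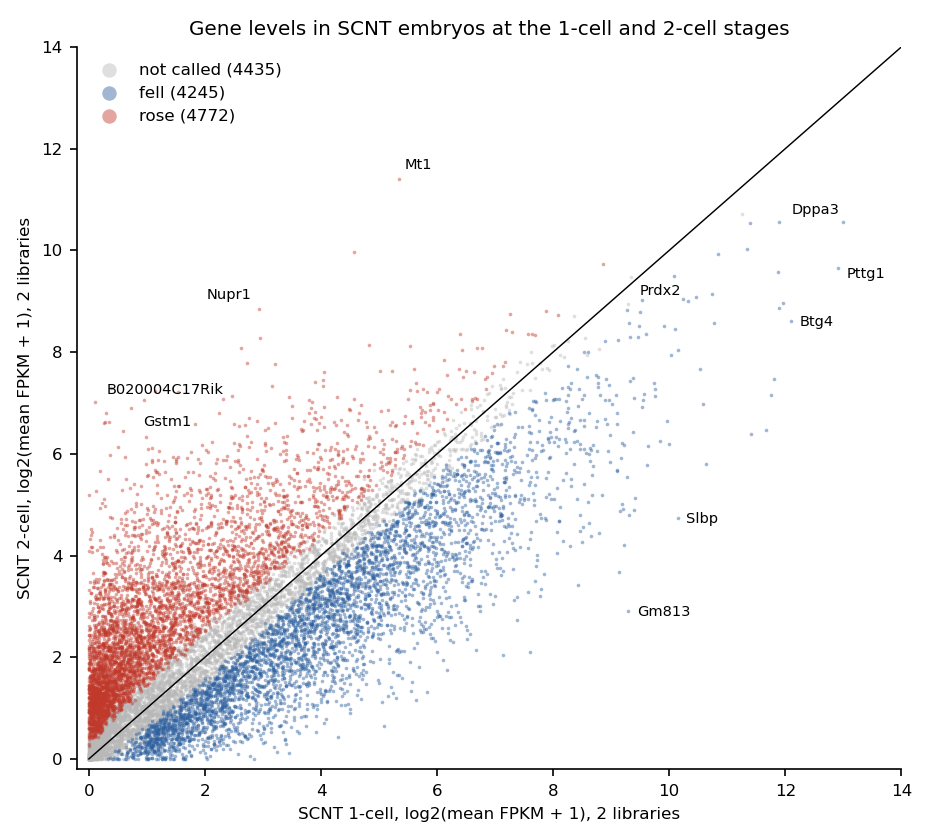
Mean level of each tested gene in SCNT 1-cell (x axis) and SCNT 2-cell embryos (y axis), as log2(mean FPKM + 1) of 2 libraries each; red genes rose (4772), blue genes fell (4245) and grey genes did not pass the test (4435), with equality as the black line. Genes at the highest 1-cell levels lie below the line, and Mt1 and Nupr1 stand far above it.

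The direction followed the level at the 1-cell stage, which was also 1 side of the comparison, so this is a description only. Among 4429 genes under 1 FPKM at the 1-cell stage, 58.3% rose and 2.3% fell. Among 457 genes at 100 to 500 FPKM, 4.16% rose and 82.7% fell. Of the 76 genes over 500 FPKM none rose and 73 fell. These shares are for FPKM as deposited and were not counted under another scale. Prdx2, 1 of the 76, rose after quantile normalization (log2 difference 1.64) and with equal sums of FPKM (0.93).

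The gene with the highest level among the 15 largest rises was Mt1, metallothionein 1, a small protein that binds zinc and copper. It stood at 32.4 and 47.1 FPKM in the 1-cell and at 2948 and 2438 FPKM in the 2-cell libraries, a log2 difference of 6.06 (SE 0.24, adjusted p = 7.5e-09 in limma). Its neighbour Mt2, named here after its values were seen, went from 20.2 and 25.5 to 1103 and 885 FPKM (log2 difference 5.38). Both sat near the top of the 2-cell libraries by FPKM, and metallothioneins are known to be induced by metals and by stress. Another of the 15 was Nupr1, a small chromatin-associated protein induced by cellular stress. It stood at 7.66 and 5.61 FPKM at the 1-cell and at 501 and 413 FPKM at the 2-cell stage (log2 difference 5.91, SE 0.25, adjusted p = 9.1e-09).

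The promoter sequences of these genes are shown because the genes moved most at high levels. Each runs over the 250 bases before the gene's start, 5′ to 3′ on the gene's strand, from RefSeq on build GRCm38.p6. Capitals mark TGCACNC and TGCGCNC on either strand in Mt1 and Mt2, the core letters of the metal response element, and TGATGCAA on either strand in Nupr1, letters bound by Atf4 with a C/EBP partner. The Mt1 window (chr8:94178839-94179088, plus strand) held 1 match of TGCACNC and none of TGCGCNC, and the Mt2 window (chr8:94172368-94172617, plus strand) held 2 and 1. The Nupr1 window (chr7:126625471-126625720, minus strand) held 1 match of TGATGCAA. The window of Slc38a2, an amino acid transporter gene that also rose and is named below, held none. Of 27025 promoter windows of the same length, 10.2% held TGCACNC, 12.6% TGCGCNC and 0.818% TGATGCAA. Among the 10691 tested genes with a window these shares were 10.5%, 21.0% and 0.599%. These motifs were chosen after the values were seen, and a match of letters is not a binding site. Letters outside the windows were not searched, so these numbers are not totals for a gene's whole promoter.
Mt1: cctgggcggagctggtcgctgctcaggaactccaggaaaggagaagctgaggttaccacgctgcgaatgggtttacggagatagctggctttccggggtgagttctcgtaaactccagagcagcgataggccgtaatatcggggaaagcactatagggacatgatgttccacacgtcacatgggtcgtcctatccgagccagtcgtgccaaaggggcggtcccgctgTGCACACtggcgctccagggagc
Mt2: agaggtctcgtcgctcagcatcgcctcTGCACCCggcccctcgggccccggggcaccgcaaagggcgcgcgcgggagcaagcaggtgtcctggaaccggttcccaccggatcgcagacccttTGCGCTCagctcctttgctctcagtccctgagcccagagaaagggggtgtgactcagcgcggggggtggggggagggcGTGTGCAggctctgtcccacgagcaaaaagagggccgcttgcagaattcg
Nupr1: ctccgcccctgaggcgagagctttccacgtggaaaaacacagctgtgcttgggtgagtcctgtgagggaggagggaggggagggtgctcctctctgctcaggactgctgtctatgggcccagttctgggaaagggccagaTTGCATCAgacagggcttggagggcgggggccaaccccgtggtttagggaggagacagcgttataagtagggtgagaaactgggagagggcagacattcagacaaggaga

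Of the other 13 large rises, 4 were in the list of 2-cell-stage transcripts (Trim43a, Trim43b, Trim43c and Dub1a) and 2 in that of activation factors and homeobox genes (Obox6 and Crxos1). Obox6, a homeobox gene of the oocyte and early embryo, stood at 1.20 and 0.652 FPKM at the 1-cell and at 128 and 137 FPKM at the 2-cell stage (log2 difference 6.13, SE 0.40, adjusted p = 1.5e-07). Crxos1, another homeobox gene, went from 0.423 and 0.593 to 95.5 and 76.6 FPKM (log2 difference 5.85). Dub1a, a deubiquitinating enzyme gene of a repeated family, went from 0.269 and 0.315 to 47.4 and 75.9 FPKM. These genes were all near 0 in donor cells, where their means were 0.442, 0.0908 and 0.975 FPKM.

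The 3 Trim43 genes, which encode RING-finger proteins and lie on chromosome 9, all rose. Trim43a went from 0.339 and 0.269 to 162 and 152 FPKM (log2 difference 6.92, SE 0.30). Trim43b reached 99.3 and 94.4 FPKM and Trim43c 74.3 and 64.7 FPKM, from under 0.5 FPKM in all 1-cell libraries. Their values are uncertain as single genes, since 43.0%, 43.9% and 41.2% of the 50-base stretches of their transcripts also occur in other genes. The uncharacterised genes B020004C17Rik, Gm11517 and Gm4850 rose as much. B020004C17Rik, on chromosome 14, was at 0.035 and 0.119 FPKM in the 1-cell and at 124 and 134 FPKM in the 2-cell libraries (log2 difference 6.92, SE 0.22, adjusted p = 2.7e-09). Gm11517 reached 98.0 FPKM in both 2-cell libraries and Gm4850 114 and 188 FPKM.

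The promoter of B020004C17Rik (chr14:57014884-57015133, plus strand, GRCm38.p6) is shown as that of the largest rise in a gene with little shared sequence. Capitals mark CCAAT, read on the other strand, and TATAAA, found on both strands in overlap. Of the 27025 windows 13.0% held TATAAA and 34.5% CCAAT, and among tested genes with a window 7.46% and 36.7%.
B020004C17Rik: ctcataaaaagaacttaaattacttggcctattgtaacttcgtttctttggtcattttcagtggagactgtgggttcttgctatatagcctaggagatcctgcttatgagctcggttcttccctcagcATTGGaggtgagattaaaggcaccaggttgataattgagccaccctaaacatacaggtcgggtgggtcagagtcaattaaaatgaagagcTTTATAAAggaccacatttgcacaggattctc

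Other large rises were of genes that the donor cells also expressed. Cd63, a tetraspanin of late endosomes, stood at 0.356 and 0.0861 FPKM at the 1-cell and at 136 and 86.4 FPKM at the 2-cell stage (log2 difference 6.49, SE 0.37), with a mean of 212 FPKM in donor cells. Nme2, a nucleoside diphosphate kinase, went from 2.59 and 1.18 to 160 and 134 FPKM, with 124 FPKM in donor cells, and 56.5% of its stretches are shared with other genes. Gstm1, a glutathione transferase that conjugates electrophiles, went from 0.857 and 0.458 to 131 and 106 FPKM (log2 difference 6.17, SE 0.19), with 31.3 FPKM in donor cells and 25.0% of stretches shared. Folr1, a folate receptor of the cell surface, differed from these in its donor level of 1.08 FPKM. It went from 0.259 and 0.289 to 107 and 88.1 FPKM (log2 difference 6.27, SE 0.27). The stage change was also tested against that of IVF embryos. Nme2 rose less in SCNT embryos (difference −1.43 log2 units) and Gstm1 more (5.98), while Cd63 and Folr1 did not pass. Whether the donor nucleus had a part in these rises was not tested.

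**Figure D2:**
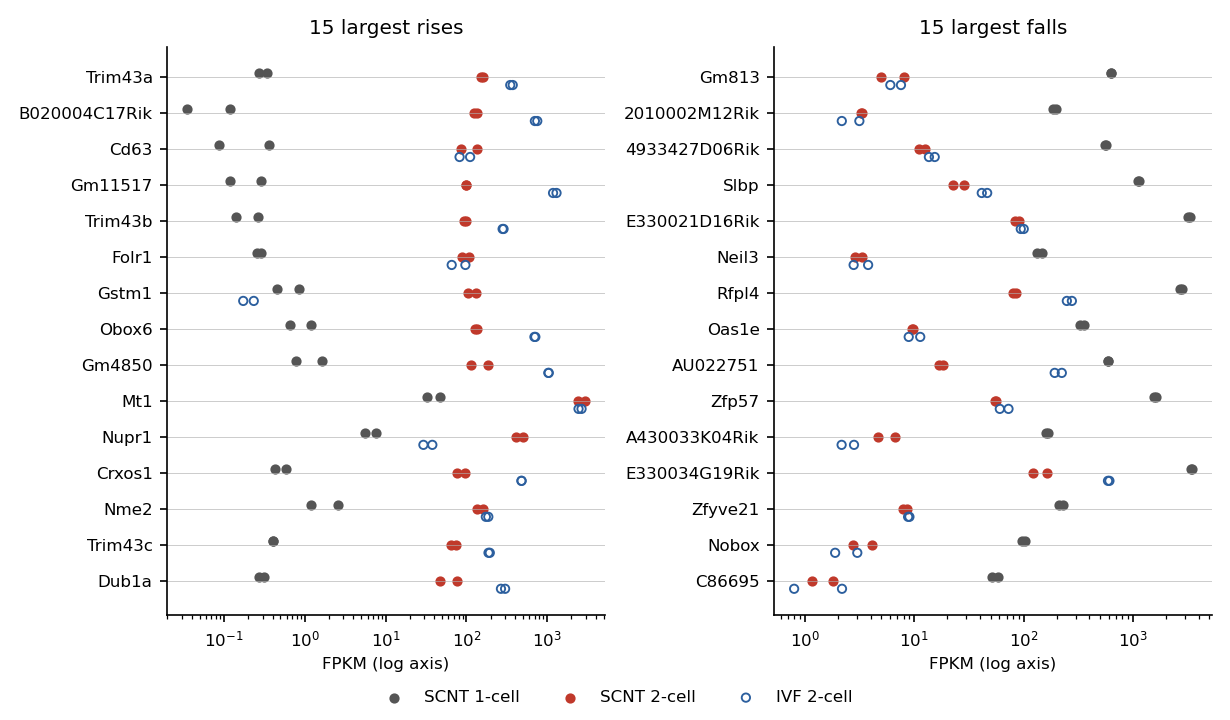
FPKM on a log axis in single libraries for the 15 largest rises (left) and the 15 largest falls (right) in SCNT embryos; grey points are SCNT 1-cell, red points SCNT 2-cell and open blue circles IVF 2-cell libraries. The stages are separated in every gene, as the rule for naming them required, while the IVF 2-cell libraries lie above, at or below those of SCNT 2-cell embryos.

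Of the 15 largest falls, 3 were in the list of maternal oocyte transcripts (Rfpl4, Nobox and E330034G19Rik). Gm813, an uncharacterised gene on mm9 at chr16:58613799-58617091, stood at 624 and 628 FPKM in the 1-cell and at 4.98 and 8.0 FPKM in the 2-cell libraries, a 96.4-fold decrease of the mean (log2 difference −6.42, SE 0.22, adjusted p = 3.4e-09 in limma). Slbp, the stem-loop binding protein that processes and stabilises histone mRNA, fell from 1119 and 1145 to 22.8 and 28.3 FPKM, or 44.3-fold (log2 difference −5.42, SE 0.17). E330021D16Rik, one of the most abundant transcripts of the 1-cell embryo, fell from 3187 and 3334 to 91.3 and 84.3 FPKM. Rfpl4, a RING-finger protein of the oocyte, fell from 2674 and 2793 to 80.4 and 85.3 FPKM. As separation of the stages was required for naming these genes, and 86.4% of all genes had it, it says nothing particular about them.

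Zfp57, a zinc finger protein that binds methylated imprinting control regions, fell from 1563 and 1622 to 54.4 and 55.4 FPKM (log2 difference −4.83, SE 0.23). Nobox, a homeobox factor needed for oocyte growth, fell from 96.9 and 104 to 4.12 and 2.75 FPKM. Neil3, a DNA glycosylase of base excision repair, fell from 133 and 147 to 2.90 and 3.35 FPKM. The remaining members of the 15 (2010002M12Rik, 4933427D06Rik, Oas1e, AU022751, A430033K04Rik, E330034G19Rik, Zfyve21 and C86695) had log2 differences between −5.49 and −4.52. E330034G19Rik kept the highest 2-cell level of the 15, with 123 and 162 FPKM after 3409 and 3473. The highest donor mean among the 15 was 11 FPKM, for Slbp, and their 1-cell levels in IVF embryos ran from 49.0 FPKM for C86695 to 3921 FPKM for E330034G19Rik.

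The Slbp promoter (chr5:33652575-33652824, minus strand, GRCm38.p6) is shown as that of the deepest fall of a gene of known role. Capitals mark 3 copies of CCAAT, a motif that 34.5% of the 27025 windows held at least once.
Slbp: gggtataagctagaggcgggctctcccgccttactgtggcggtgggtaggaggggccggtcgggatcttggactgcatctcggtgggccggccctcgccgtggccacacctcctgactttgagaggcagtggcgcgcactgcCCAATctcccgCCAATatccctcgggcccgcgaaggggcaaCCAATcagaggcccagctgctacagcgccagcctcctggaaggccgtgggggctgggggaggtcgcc

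Genes that passed from absent to present, or the reverse, were counted by level. Switched-on genes were those under 1 FPKM in both 1-cell libraries and at 5 FPKM or more in both 2-cell libraries. There were 410, and 409 of them rose. The other one was Rpl26, at 0.880 and 0.934 FPKM in the 1-cell libraries and with an adjusted p of 0.0644 in limma, which was called with only the 4 SCNT libraries in the fit. Lost genes, the reverse, numbered 62, and all of these fell. The levels chose the members, so these counts carry no test. With equal sums of FPKM 743 genes were switched on and 23 lost, and without the second SCNT 2-cell library 101 were lost.

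Of the 410 switched-on genes, 270 had at least 1 FPKM in both donor libraries and 122 were under 1 FPKM in both. The median donor level was 3.33 FPKM for the 410 and 3.46 FPKM for all tested genes, so these counts are no result about donor expression. In IVF 2-cell embryos 356 reached 1 FPKM in both libraries, 223 reached 5 FPKM and 44 stayed under 1 FPKM in both. In mutant Kdm4d embryos 399 reached 1 FPKM in both libraries, and in Kdm4d embryos 377. As SCNT 2-cell levels chose the 410, and no share over all genes was counted, these numbers are descriptions. Of the 410, 4 had 10 FPKM or more in both donor libraries and under 1 FPKM in both IVF 2-cell libraries: Gstm1, Cyba, Rnase4 and Ralb. Cyba, the p22phox subunit of NADPH oxidases, went from 0.206 and 0.287 to 13.3 and 13.5 FPKM. Rnase4, a secreted ribonuclease, went from 0.589 and 0.665 to 16 and 6.08 FPKM, so its 2-cell libraries differed from each other by more than those of Cyba. Ralb, a small GTPase of vesicle traffic, went from 0.644 and 0.482 to 6.2 and 6.96 FPKM.

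Another 17 switched-on genes were under 1 FPKM in both donor and both IVF 2-cell libraries. The highest were Aqp3, Gpx2, 2210407C18Rik, Gramd2, Meig1 and Pmel. Aqp3, a channel for water and glycerol, stood at 0.538 and 0.359 FPKM at the 1-cell and at 19.6 and 16.1 FPKM at the 2-cell stage. Gpx2, a glutathione peroxidase best known from gut epithelium, had 0.199 FPKM in the first 1-cell library and a listed 0 in the second, and stood at 20.6 and 12.2 FPKM in 2-cell embryos. Pmel, the amyloid scaffold protein of melanosomes, went from 0.290 and 0.128 to 8.96 and 9.02 FPKM. Means of these 6 genes ran from 3.86 to 8.04 FPKM in mutant Kdm4d and from 0.191 to 2.48 FPKM in Kdm4d embryos.

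The lost gene with the highest 1-cell level was Casp8, the initiator caspase of death receptor signalling, on mm9 at chr1:58852218-58904347. It fell from 33.6 and 32.2 to 0.645 and 0.507 FPKM (log2 difference −4.43, SE 0.25). Pabpn1l, a poly(A)-binding protein of the oocyte and early embryo, fell from 15.9 in both libraries to 0.721 and 0.741 FPKM. Tfap2c, a transcription factor of the trophectoderm, fell from 11.9 and 11.2 to 0.782 and 0.747 FPKM (log2 difference −2.83, SE 0.26). Popdc2, Manba, Gm12633, C130060K24Rik, Gm5065, Gm4981 and LOC100503280 completed the 10 most abundant lost genes, at 1-cell means between 11.4 and 18.7 FPKM. Of all 62, 48 were also under 1 FPKM in both IVF 2-cell libraries. In mutant Kdm4d embryos 16 were under 1 FPKM in both libraries, and in Kdm4d embryos 35. These numbers too are descriptions, without a share over all genes.

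**Figure D3:**
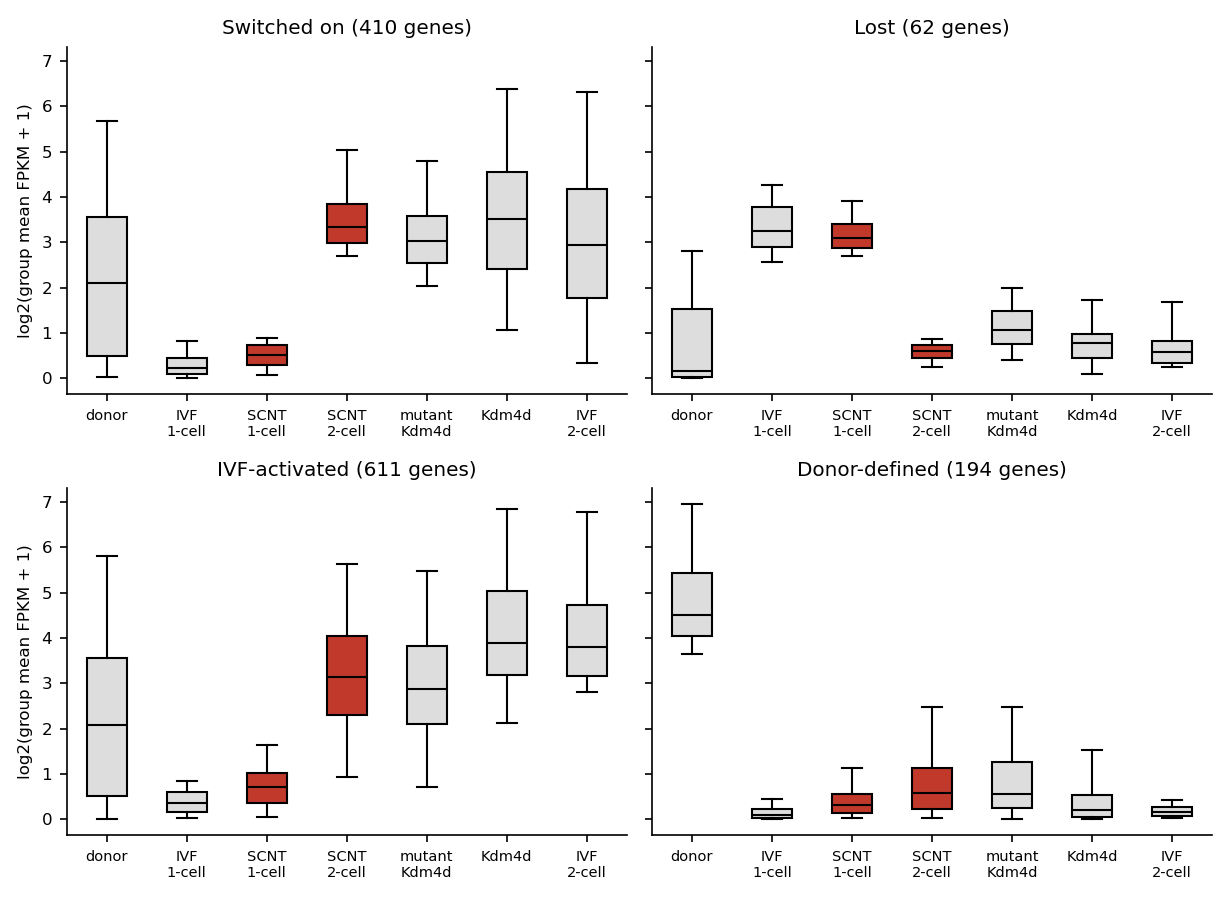
Levels of 4 gene classes across the 7 groups, as log2(mean FPKM + 1) of 2 libraries per group; boxes span the quartiles over genes with the median as a line, whiskers the 5th to 95th percentile, and red boxes mark SCNT 1-cell and 2-cell embryos. The switched-on and lost classes were chosen on the red groups, whereas IVF-activated and donor-defined genes were chosen without any SCNT library, and the IVF-activated genes reach a median of 7.80 FPKM in SCNT 2-cell against 13.0 FPKM in IVF 2-cell embryos.

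To see how much of the activation found after fertilisation appeared after nuclear transfer, genes were chosen from IVF libraries alone: under 1 FPKM in both 1-cell and at 5 FPKM or more in both 2-cell libraries. Of these 611 IVF-activated genes, 566 rose in SCNT embryos, 44 did not pass and 1 fell. That one was Gm13083, named after its value was seen, with 25.7% of stretches shared, and not called with equal sums or without the first library of either stage. Over all tested genes 35.5% rose, and of those with a mean under 1 FPKM at the SCNT 1-cell stage 58.3%. The median of the 611 at that stage was 0.63 FPKM. In SCNT 2-cell embryos 385 of the 611 reached 5 FPKM in both libraries. The mean in SCNT 2-cell embryos was below 50% of that in IVF 2-cell embryos for 292 of them (47.8%) and below 10% for 46, while it was higher than in IVF for 116. Since the IVF libraries chose these genes for being high, part of such a shortfall comes with the choice, and no test of the difference is given.

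There were 31 IVF-activated genes under 1 FPKM in both SCNT 2-cell libraries. The highest in IVF 2-cell embryos was 1700013H16Rik, on mm9 at chrX:51046078-51061008. Its mean there was 145 FPKM, while the 2 SCNT 1-cell libraries had 0.0187 FPKM and a listed 0, and it was found and at 0.0443 and 0.0207 FPKM in SCNT 2-cell embryos. Rpl10l, a testis-expressed copy of a large-subunit ribosomal protein gene, had 48.2 FPKM in IVF and 0.496 and 0.928 FPKM in SCNT 2-cell embryos. Nup62cl, a gene related to a nuclear pore protein, had 41.3 against 0.514 and 0.662 FPKM. Ugt2b36, a glucuronosyltransferase, had 30.2 against 0.953 and 0.903 FPKM. The 6 highest also held Pramef6 and Gm2022, whose stretches are shared at 35.4% and 97.4% and whose levels are therefore uncertain. Of the 31 genes, 24 were at 1 FPKM or more in both Kdm4d libraries, 3 in both mutant Kdm4d libraries and 2 in both donor libraries. As low SCNT 2-cell levels chose the 31, part of a higher level in another SCNT group comes with the choice. No share over all tested genes was counted beside these numbers, which are descriptions.

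Transcripts that mark the donor cell were also chosen without SCNT libraries, with at least 10 FPKM in both donor and under 0.5 FPKM in all 4 IVF libraries. Of these 194 donor-defined genes, 68 rose between the SCNT stages, 6 fell and 120 did not pass. These 194 had a median of 0.249 FPKM at the SCNT 1-cell stage, where 58.3% of all tested genes with means under 1 FPKM rose. Their own share that rose, 35.1%, was close to the 35.5% of all tested genes, so the count of rises is no result about donor transcripts. After quantile normalization 38 rose and 19 fell, and without the second SCNT 1-cell library 1 fell. At the 1-cell stage 10 were at 1 FPKM or more in both libraries, at the 2-cell stage 48, and 38 of these had been below 1 FPKM in both 1-cell libraries. Their summed level was 69.8 and 67.4 FPKM at the 1-cell and 368 and 342 FPKM at the 2-cell stage, against 25.6 and 27.7 FPKM in IVF 2-cell embryos. In Kdm4d embryos 13 reached 1 FPKM in both libraries and in mutant Kdm4d embryos 50.

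Gstm1 alone gave 131 and 106 FPKM of the 2-cell sum. Slc38a2, a transporter of neutral amino acids that cells induce when amino acids are scarce, rose from 3.73 and 2.66 to 33.6 and 29.9 FPKM (log2 difference 2.97, SE 0.27, adjusted p = 1.6e-06), with 181 FPKM in donor cells. Ngfrap1, also known as Bex3, rose from 1.58 and 1.83 to 9.42 and 10.4 FPKM. Usp18, which removes the ubiquitin-like protein Isg15, rose from 1.57 and 1.25 to 5.44 and 5.74 FPKM, and Sbsn rose from 0.971 and 2.34 to 4.40 and 4.59 FPKM. Nrn1, a small protein anchored at the cell surface, fell from 2.01 and 1.72 to 0.423 and 0.319 FPKM. Ndufa4l2, a mitochondrial protein induced in hypoxia, stood at 1.31 and 1.47 FPKM at the 1-cell and at 0.0298 and 0.0278 FPKM at the 2-cell stage, and did not pass (adjusted p = 0.0534), but was called with only the 4 SCNT libraries in the fit and after quantile normalization.

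Beside these, 45 of 48 listed markers of cumulus and granulosa cells were tested, of which 14 rose and 7 fell, with a median difference of 0.01. After quantile normalization 10 rose and 12 fell, with a median of −0.18. The 45 tested markers together summed to 169 and 183 FPKM at the 1-cell and 138 and 126 FPKM at the 2-cell stage. Their sums were 119 and 131 in IVF 1-cell, 121 and 124 in IVF 2-cell embryos and 29682 and 23564 in donor cells. None of the 45 was listed at 0 in both libraries of either SCNT group. Akr1c18, which breaks down progesterone, fell from 23.9 and 38.8 to 3.03 and 2.79 FPKM. Fdx1, the electron donor of mitochondrial steroid synthesis, fell from 26.1 and 24.7 to 3.64 and 1.67 FPKM, and Serpine2, a protease inhibitor, from 47.3 and 41.6 to 7.37 and 6.32 FPKM. Fdx1 and Serpine2 stood at similar levels in IVF 1-cell embryos, with means of 26.2 and 59.4 FPKM, whereas Akr1c18 had 0.0569 FPKM there. Gja1, the gap junction protein connexin 43, rose from 4.66 and 4.31 to 35.9 and 34.2 FPKM, Sparc, a matrix protein, from 0.947 and 1.00 to 9.05 and 7.88 FPKM, and Amhr2, the receptor of anti-Müllerian hormone, from 0.153 and 0.0687 to 11.9 and 8.45 FPKM.

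Sums over the tested markers of other cells were higher at the 2-cell than at the 1-cell stage, except for the 1 tested sperm marker. Of 13 immune markers 7 were tested, of which 3 rose, and their sum was 3.12 and 2.83 FPKM at the 1-cell and 17.7 and 13.2 FPKM at the 2-cell stage. Of 6 red blood cell markers only 1 was tested, the globin gene Hba-a2, at 0.000434 and 0.000454 and then at 13.4 and 18.8 FPKM. Of 7 oviduct epithelial markers 3 were tested, and their rise from 7.49 and 7.13 to 70.4 and 63.2 FPKM in sum lay mostly in Epcam, which went from 1.60 and 1.29 to 59.9 and 54.1 FPKM and had a mean of 64.8 FPKM in IVF 2-cell embryos. Of 7 endothelial markers 3 were tested, and these summed to 4.39 and 4.24 and then to 5.89 and 5.07 FPKM. Of 7 sperm markers only 1 was tested, at 7.83 and 11.1 and then at 3.98 and 2.63 FPKM. The part of other cells in the changes above was not tested.

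Lists of genes by role were then counted. Since the median over all genes moves with the scale, a list's median is called above or below that of all genes only where this held as deposited, after quantile normalization and with equal sums. This was so for 18 lists above and 9 below among the 33 with 10 or more tested members, and 6 changed side. A list has no test of its own here, and its counts are to be read against 35.5% rose and 31.6% fell over all genes.

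**Figure D4:**
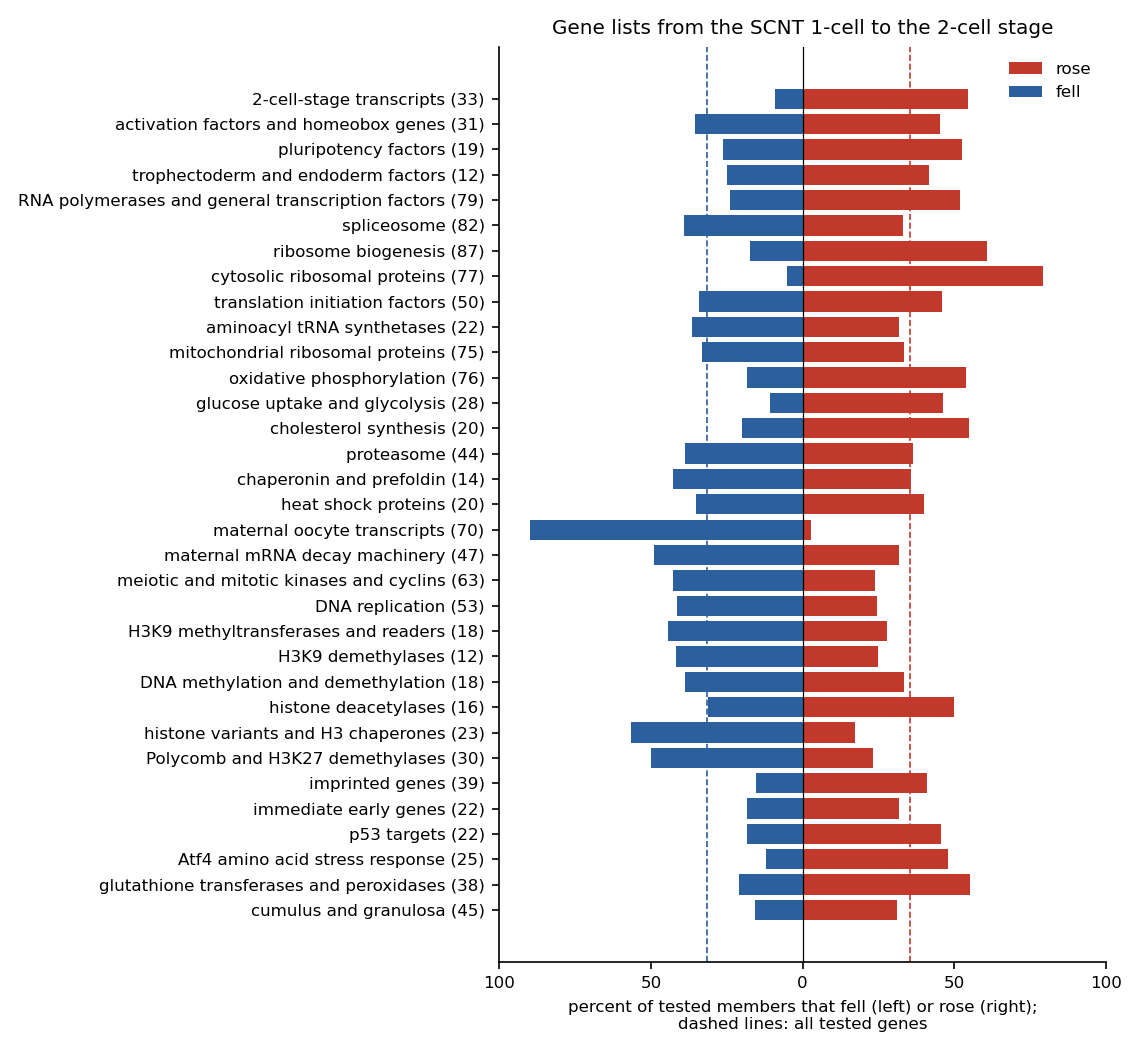
For the 33 gene lists with 10 or more tested members, percent of the members that rose (red, right) or fell (blue, left) from the SCNT 1-cell to the 2-cell stage, with the number tested in brackets and all tested genes as dashed lines at 35.5% and 31.6%. Among these lists cytosolic ribosomal proteins lie furthest to the right, with 61 of 77 rising, and maternal oocyte transcripts furthest to the left, with 63 of 70 falling.

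Genes of genome activation were split within their lists. Of 33 tested 2-cell-stage transcripts, genes known to peak at that stage, 18 rose, 3 fell and 12 did not pass (median 1.04, above all genes in all scalings). Zfp352, a zinc finger gene, rose from 16 and 13.8 to 128 and 81.4 FPKM. Zscan4d, of a family used as a marker of 2-cell-like cells, fell from 2.60 and 2.59 to 0.228 and 0.898 FPKM (not called without the first 2-cell library, adjusted p = 0.052 in limma), while its mean in IVF 2-cell embryos was 39.0 FPKM. The other two that fell were Arg2, an arginase, from 125 and 131 to 32.1 and 29.2 FPKM, and D5Ertd577e. Over 15% of the stretches of 25 of the 33 genes are shared with other genes, Zscan4d at 50.0% and D5Ertd577e at 79.5%, so values of single members are uncertain. In the test of the difference between the SCNT and IVF stage changes, 28 of the 33 were lower in SCNT and none was higher, against 12.7% lower and 16.5% higher over all genes.

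Among 31 activation factors and homeobox genes 14 rose and 11 fell (median 0.52, above all genes in all scalings). The Obox family went both ways. Obox6 rose, as given above, while Obox5, Obox1 and Obox2 fell, from 996 and 1039 to 69.0 and 74.8 FPKM for Obox5, from 342 and 365 to 18.7 and 24.3 FPKM for Obox1 and from 158 in both libraries to 9.72 and 14.7 FPKM for Obox2. Of the stretches of Obox1 and Obox2 57.6% and 68.5% are shared. Dppa4, a chromatin protein of pluripotent cells, rose from 2.61 and 2.34 to 52.8 and 45.4 FPKM, with 28.5% of stretches shared. Yap1, the co-activator of the Hippo pathway, fell from 309 and 303 to 86.7 and 94.1 FPKM.

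Of 19 pluripotency factors 10 rose and 5 fell (median 1.17, above all genes in all scalings). Fgf4, a growth factor of the inner cell mass, stood at 0.00675 and 0.0353 FPKM at the 1-cell and at 24 and 16.1 FPKM at the 2-cell stage (log2 difference 4.34). Klf4, one of the reprogramming factors, rose from 2.01 and 1.94 to 18.7 and 15.9 FPKM. Dppa3, which protects maternal chromatin from demethylation, fell from 8019 and 8385 to 1594 and 1424 FPKM (log2 difference −2.44, SE 0.23). Tcl1, a co-factor of the kinase Akt, fell from 3587 and 3891 to 710 and 817 FPKM, Sall4 from 156 and 151 to 54.7 and 59.9 FPKM and the RNA-binding protein gene Lin28a from 34.2 and 34.7 to 7.36 and 5.37 FPKM. The remaining one was Pou5f1, with a log2 difference of −0.90, named after its value was seen. It was not called with equal sums (−0.20), nor without the second 1-cell or the second 2-cell library (adjusted p = 0.10 and 0.14 in limma). Of 12 trophectoderm and endoderm factors 5 rose and 3 fell (median 0.02), while after quantile normalization 4 rose and 6 fell (median −0.42). The 3 were Tfap2c, Gata3 (25.9 and 25.6 to 3.17 and 3.99 FPKM) and Dab2.

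The machinery of transcription rose more often than it fell. Of 79 genes of RNA polymerases and general transcription factors 41 rose and 19 fell (median 0.66, above all genes in all scalings). Polr1c, a subunit shared by polymerases I and III, rose from 8.64 and 10.4 to 71.6 and 60.6 FPKM. Polr3g, of polymerase III, rose from 2.98 and 1.96 to 23.7 and 20.9 FPKM, and Gtf3c6, of the polymerase III factor TFIIIC, from 6.58 and 5.16 to 48.1 and 42.0 FPKM. Gtf2b, the factor TFIIB that places polymerase II at start sites, fell from 236 and 235 to 36.8 and 32.3 FPKM, and Taf7, a subunit of TFIID, from 174 and 172 to 44.8 and 43.0 FPKM.

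Spliceosome genes went both ways, with 27 of 82 rising and 32 falling, and 42 rising and 20 falling with equal sums. Their median was −0.23 as deposited, 0.06 after quantile normalization and 0.50 with equal sums, and its side relative to all genes changed with the scale. Snrpd2, a core Sm protein, rose from 4.08 and 5.81 to 67.4 and 65.4 FPKM, while Snrpd3, another Sm protein, fell from 403 and 446 to 104 and 78.3 FPKM. Snrnp25, of the minor spliceosome, rose from 14.4 and 13.2 to 189 and 149 FPKM. Magoh, a core protein of the exon junction complex, fell from 856 and 862 to 160 and 147 FPKM, and its close relative Magohb from 105 and 109 to 10.2 and 9.79 FPKM, the latter with 25.2% of its stretches shared.

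Ribosome genes moved upward most often. Of 77 cytosolic ribosomal protein genes 61 rose and 4 fell (median 1.34, above all genes in all scalings), but 58 of the 77 share over 15% of their stretches with other genes and how their reads were divided is not stated in the labels. Rpl41 rose from 5.42 and 5.75 to 243 and 197 FPKM and Rps26 from 6.84 and 9.68 to 251 and 183 FPKM, at 15.7% and 17% shared. The 4 that fell were Rpl15, Rpl17, Rpl7a and Rplp2, the last named after its value was seen. Rplp2 was not called after quantile normalization (−0.35), with no filter, without any 1 of the 4 libraries or with equal sums (−0.0035), and Rpl7a was not called with equal sums (−0.33). Rpl15 fell from 22.7 and 24.7 to 2.96 and 2.05 FPKM.

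Of 87 ribosome biogenesis factors, which carry few shared stretches, 53 rose and 15 fell (median 0.80, above all genes in all scalings). Nop16, a nucleolar assembly factor of the large subunit, rose from 1.12 and 0.913 to 71.9 and 62.3 FPKM (log2 difference 5.07, SE 0.21). Nol11, a factor of ribosomal RNA transcription and processing, rose from 1.33 and 1.16 to 40.6 and 32.2 FPKM, and Mak16 from 5.18 and 5.72 to 103 and 83.7 FPKM. Riok1, a kinase of small-subunit maturation, fell from 353 in both libraries to 25.2 and 28.4 FPKM. Of the 87, 39 rose less or fell more in SCNT than in IVF embryos by the test of the difference and 1 did the opposite, against 12.7% and 16.5% of all genes.

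Of 50 translation initiation factors 23 rose and 17 fell (median 0.27, above all genes in all scalings). Pabpc1, the main cytoplasmic poly(A)-binding protein of somatic cells, rose from 1.08 and 1.00 to 22.3 and 19.8 FPKM. Eif2b5, a subunit of the exchange factor of eIF2, rose from 2.17 and 1.39 to 24.4 and 24.2 FPKM, while Eif2b1, another subunit, fell from 205 and 193 to 70.5 and 61.6 FPKM. Aminoacyl tRNA synthetases were about even, with 7 of 22 rising and 8 falling (13 and 3 with equal sums), and their median was −0.02 as deposited, 0.17 after quantile normalization and 0.69 with equal sums. Mars, for methionine, rose from 0.287 and 0.139 to 13.8 and 9.35 FPKM, and Farsb, for phenylalanine, fell from 96.6 and 98.2 to 25.4 and 23.0 FPKM.

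Genes of the respiratory chain and ATP synthase rose in 41 of 76 cases and fell in 14 (median 1.05, above all genes in all scalings). The complex I genes Ndufa9 and Ndufv3 rose from 5.56 and 4.64 to 84.4 and 55.9 FPKM and from 6.42 and 8.58 to 102 and 79.0 FPKM. Atp5k and Atp5e, small subunits of ATP synthase, rose from 83.0 and 86.6 to 263 and 259 FPKM and from 80.4 and 98.2 to 192 and 202 FPKM. Ndufa8, also of complex I, fell from 55.1 and 50.6 to 4.81 and 5.52 FPKM, and Sdha, the catalytic subunit of complex II, from 61.2 and 59.8 to 7.77 and 6.89 FPKM. By the test of the difference 22 of the 76 changed more upward in SCNT than in IVF embryos and 8 more downward, against 16.5% and 12.7% of all genes. Genes of mitochondrial ribosomes were even, with 25 of 75 rising and 25 falling (median 0.12, and −0.01 after quantile normalization), while with equal sums 41 rose and 15 fell.

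In energy and lipid metabolism 13 of 28 genes of glucose uptake and glycolysis rose and 3 fell, and 11 of 20 genes of cholesterol synthesis rose and 4 fell, with medians of 0.49 and 0.98, above all genes in all scalings. Ldhb, the lactate dehydrogenase of the oocyte, fell from 847 and 977 to 80.5 and 69.3 FPKM, with 20.4% of stretches shared. The other two that fell were Dlat and the hexokinase gene Hk2. Aldoa, the main aldolase, rose from 19.1 and 20.9 to 86.1 and 85.0 FPKM. In cholesterol synthesis Ebp, Mvk and Pmvk led the rises, with Ebp going from 1.25 and 1.12 to 11.1 and 9.67 FPKM, and Nsdhl, Idi1, Stard4 and Sc5d fell. When sums were equal Sc5d had a log2 difference of 0.035 and Stard4 one of −0.17, and Stard4 was also not called without the second 1-cell or the first 2-cell library (adjusted p = 0.079 and 0.098 in limma).

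Protein turnover and folding held large changes in both directions. Of 44 proteasome genes 16 rose and 17 fell, and with equal sums 24 rose and 7 fell (median 0.14, above all genes in all scalings). Psme1 and Psme2, the subunits of the PA28 activator, rose from 0.665 and 0.413 to 26.5 and 19.8 FPKM and from 0.193 and 0.336 to 9.0 and 5.69 FPKM. Psmb1, of the catalytic core, rose from 11.4 and 14.2 to 141 and 124 FPKM, while Psma7, also of the core, fell from 266 and 280 to 142 and 127 FPKM, a fall not called after quantile normalization (log2 difference 0.086) or with equal sums (−0.24). Of the 14 genes of chaperonin and prefoldin, which fold actin and tubulin, 5 rose and 6 fell (median 0.04), while after quantile normalization 8 rose and 4 fell (median 0.57). Cct6a, of the chaperonin ring, rose from 2.23 and 1.56 to 42.3 and 38.2 FPKM, and Pfdn4, of prefoldin, fell from 682 and 680 to 31.2 and 36.6 FPKM. Of 20 heat shock proteins 8 rose and 7 fell. Hspa5, the chaperone BiP of the endoplasmic reticulum, rose from 48.2 and 49.3 to 164 and 169 FPKM.

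Most maternal stores fell. Of 70 tested maternal oocyte transcripts 63 fell, 2 rose and 5 did not pass (median −2.07, below all genes in all scalings). Btg4, an adaptor that brings the deadenylase complex to maternal mRNA, fell from 4285 and 4520 to 349 and 428 FPKM (log2 difference −3.51, SE 0.34). Spin1, a chromatin reader abundant in the egg, fell from 3932 and 4078 to 437 and 556 FPKM. Oog3, of an oocyte gene family, kept more, falling from 3719 and 3873 to 1268 and 1750 FPKM, with 19.5% of stretches shared, and its log2 difference was 0.40 and not called after quantile normalization. The 2 that rose were Zp3, a zona pellucida protein, from 14.9 and 13.8 to 32.1 and 28.0 FPKM, and Sebox, a homeobox factor, from 35.2 and 41.7 to 66.4 and 62.2 FPKM. The 5 that did not pass, named after their values were seen, were Mos, Figla, Tcl1b5, Omt2a and 2410004A20Rik, with log2 differences between −0.89 and −0.45. Each of the 5 was called under some alternative. All 5 were called as falls in the fit with group weights, whereas Omt2a rose after quantile normalization (log2 difference 1.82). In the test of the difference 19 of the 70 were higher in SCNT than in IVF embryos and 3 were lower, against 16.5% and 12.7% of all genes.

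The machinery that degrades maternal mRNA shifted in composition. Of 47 genes 23 fell and 15 rose, with a median of −0.31. With equal sums of FPKM 12 fell and 23 rose, with a median of 0.38. Cnot7, a deadenylase of the CCR4-NOT complex, fell from 370 and 366 to 63.5 and 71.3 FPKM, and Cnot3, of the same complex, from 47.3 and 46.2 to 4.26 and 4.89 FPKM. Tob1, which binds that complex as Btg4 does, rose from 7.22 and 7.18 to 71.5 and 70.2 FPKM (log2 difference 3.13, SE 0.16). Zcchc11, also known as Tut4, which adds uridines to mRNA tails, rose from 0.515 and 0.724 to 11.5 and 10.2 FPKM, and Dis3, the catalytic subunit of the exosome, from 1.13 and 1.45 to 15.3 and 13.8 FPKM. Pan3, a subunit of another deadenylase, was at 391 and 358 FPKM at the 1-cell and at 296 and 319 FPKM at the 2-cell stage and did not pass.

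Among 63 meiotic and mitotic kinases and cyclins 15 rose and 27 fell, with a median of −0.23. With equal sums 30 rose and 14 fell, with a median of 0.49. Pttg1, the securin that holds sister chromatids together, fell from 7521 and 7864 to 771 and 840 FPKM. Ccnb1, cyclin B1, fell from 441 and 473 to 38.4 and 33.1 FPKM, with 17.8% of stretches shared. Ccne1, cyclin E1 of the entry into S phase, rose from 3.10 and 1.69 to 65.5 and 63.1 FPKM (log2 difference 4.30). Cdc25c, a phosphatase that activates the mitotic kinase Cdk1, rose from 7.09 and 8.68 to 179 and 143 FPKM. Ccnd2, a D-type cyclin, rose from 0.480 and 0.517 to 6.75 and 7.62 FPKM, with a mean of 0.0961 FPKM in IVF 2-cell embryos.

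Of 53 DNA replication genes 13 rose and 22 fell, with a median of −0.18. With equal sums 27 rose and 12 fell, with a median of 0.55. Slbp led the falls. Gmnn, geminin, which prevents a second round of origin licensing, fell from 437 and 441 to 171 and 164 FPKM, a fall from which −0.15 was left after quantile normalization (adjusted p = 0.35 in limma). The clamp loader subunits went apart, with Rfc4 rising from 3.95 and 5.29 to 26.1 and 25.8 FPKM and Rfc3 falling from 61.2 and 58.5 to 7.91 and 7.54 FPKM. So did the subunits of replication protein A, with Rpa2 rising from 11 and 8.88 to 54.2 and 38.6 FPKM and Rpa3 falling from 291 and 286 to 44.1 and 43.7 FPKM.

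Chromatin genes fell more often than they rose in 5 of 7 lists, an order that held with equal sums of FPKM in none of the 5. Of 23 histone variants and H3 chaperones 13 fell and 4 rose, with a median of −0.66 that was 0.09 with equal sums. H1foo, the oocyte linker histone, fell from 331 and 402 to 25.0 and 20.4 FPKM, and H3f3b, a gene of histone H3.3, from 826 and 889 to 149 and 183 FPKM. Chaf1b, of the replication-coupled chaperone CAF-1, rose from 2.97 and 3.48 to 17.1 and 15.4 FPKM. Of 30 Polycomb genes and H3K27 demethylases 15 fell and 7 rose (median −0.54, below all genes in all scalings). Ezh2, the H3K27 methyltransferase, fell from 347 and 336 to 74.0 and 76.1 FPKM, Eed, its partner, from 187 and 192 to 33.1 and 34.1 FPKM, and Rbbp7 from 762 and 804 to 51.7 and 56.4 FPKM, while Pcgf5, of a variant PRC1 complex, rose from 1.96 and 1.51 to 71.5 and 48.8 FPKM.

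Methylation of histone H3 lysine 9 marks silent chromatin, and the series tests a demethylase of this mark. Of 18 H3K9 methyltransferases and readers 8 fell and 5 rose, with a median of −0.40 that was 0.18 with equal sums. Setdb1, a methyltransferase, fell from 25.8 and 24.1 to 2.86 and 3.68 FPKM, and Mphosph8, a reader of the mark, from 208 and 205 to 27.6 and 21.9 FPKM. Cbx3, a heterochromatin protein, rose from 0.358 and 0.337 to 12 and 9.08 FPKM. Of 12 H3K9 demethylases 3 rose and 5 fell. Kdm4c rose from 0.411 and 0.711 to 24.9 and 16.9 FPKM and Kdm3a from 1.58 and 1.39 to 22.3 and 17 FPKM, while Kdm1b fell from 40.4 and 43.4 to 3.63 and 6.40 FPKM.

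In DNA methylation and demethylation 6 of 18 genes rose and 7 fell, with a median of −0.07 that was 0.54 with equal sums. Tet1, which oxidises methylcytosine, rose from 1.28 and 1.31 to 11.9 and 12.4 FPKM, and Uhrf1, which guides maintenance methylation, fell from 92.6 and 86.1 to 15.1 and 14.7 FPKM. Of 16 histone deacetylases 8 rose and 5 fell (median 0.62, above all genes in all scalings), and after quantile normalization 5 rose and 6 fell. Hdac1 rose from 0.874 and 0.859 to 12.6 and 10.2 FPKM, with 36.4% of stretches shared, while Hdac2 fell from 26.0 and 28.7 to 12.7 and 15.2 FPKM. The fall of Hdac2 was not called with equal sums (−0.18), without the second 1-cell library (adjusted p = 0.052) or without the first 2-cell library (adjusted p = 0.062, all in limma).

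Of 39 tested imprinted genes, which are normally expressed from 1 parental copy, 16 rose and 6 fell, with a median of 0.33. After quantile normalization 11 rose and 12 fell, with a median of −0.01. Impact, a paternally expressed gene that inhibits the amino acid sensor Gcn2, rose from 4.69 and 5.59 to 321 and 220 FPKM (log2 difference 5.45, SE 0.33). Sfmbt2, a Polycomb-related gene, rose from 0.519 and 0.191 to 21.4 and 17.8 FPKM. Their means in IVF 2-cell embryos were 5.56 and 1.89 FPKM, and both stage changes were higher in SCNT by the test of the difference (adjusted p = 7.1e-05 and 0.0019). Phlda2, which limits placental growth, fell from 36.5 and 41.3 to 3.43 and 3.52 FPKM, and Gnas, a G protein subunit, from 86.9 and 89.6 to 21.0 and 25.4 FPKM.

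Stress and signalling lists held more rises than falls, as did all tested genes (35.5% and 31.6%). Of 25 genes of the Atf4 response, which cells mount when amino acids run short, 12 rose and 3 fell (median 0.53, above all genes in all scalings). After Nupr1 the largest were Trib3, a pseudokinase, from 0.454 and 0.119 to 9.32 and 9.96 FPKM, and Psat1, of serine synthesis, from 3.30 and 3.29 to 37.7 and 30.9 FPKM. Mthfd2, of mitochondrial folate metabolism, fell from 141 and 145 to 36.2 and 49.5 FPKM, and Slc7a11 and Ddit4 also fell. Ddit4 was not called with equal sums (−0.28), nor without the first 1-cell or the second 2-cell library (adjusted p = 0.10 and 0.11 in limma). Of 22 p53 targets 10 rose and 4 fell (median 0.58, above all genes in all scalings). Cdkn1a, the cell cycle inhibitor p21, rose from 3.61 and 3.70 to 21.5 and 25.7 FPKM, and Trp53 itself fell from 51.1 and 56.4 to 16.7 and 17.7 FPKM. Of 22 immediate early genes 7 rose and 4 fell, with a median of 0.15 that was −0.15 after quantile normalization. The side of this median relative to all genes changed with the scale. Klf10 rose from 6.88 and 7.08 to 51.7 and 47.5 FPKM, while Fos fell from 2.50 and 2.45 to 0.180 and 0.783 FPKM.

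Of 38 glutathione transferases, peroxidases and peroxiredoxins 21 rose and 8 fell (median 0.91, above all genes in all scalings). After Gstm1, Prdx4, a peroxiredoxin of the endoplasmic reticulum, rose most, from 1.28 and 2.02 to 39.4 and 49.4 FPKM. Mgst3, a membrane-bound transferase, fell from 561 and 592 to 54.6 and 63.8 FPKM, and Prdx1 from 477 and 522 to 177 and 146 FPKM, the latter not called after quantile normalization (−0.38). By the test of the difference 16 of the 38 changed more upward in SCNT than in IVF embryos and 3 more downward, against 16.5% and 12.7% of all genes.

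Abundant genes with differences within 0.25 log2 units included Prdx2, Foxn2, Gpbp1, Dbf4 and Canx. Prdx2, a peroxiredoxin, stood at 620 and 671 FPKM at the 1-cell and at 753 and 674 FPKM at the 2-cell stage (log2 difference 0.14, SE 0.20, adjusted p = 0.54 in limma). Dbf4, the activator of the replication kinase Cdc7, stood at 246 and 260 FPKM and then at 263 and 290 FPKM. Canx, a chaperone of the endoplasmic reticulum, stood at 286 and 271 FPKM and then at 244 and 248 FPKM. None of the 5 held under another scale, and each rose both after quantile normalization and with equal sums. The log2 differences were 1.64 and 0.93 for Prdx2, 1.15 and 0.74 for Foxn2, 1.27 and 0.90 for Gpbp1, 1.26 and 0.91 for Dbf4 and 1.00 and 0.60 for Canx. Their small differences are thus those of FPKM as deposited, and a p that misses the threshold does not show equal levels.

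The stage change itself was compared with that of IVF embryos, as the difference of the 2 changes in the same model. It was higher in SCNT for 2225 genes (16.5%) and lower for 1704 (12.7%). Fitted to the libraries of the 4 groups alone, 3795 were higher and 2619 lower, and with equal sums of FPKM 3440 were higher. Leaving out the first or second SCNT 1-cell library left 1364 or 1353 higher, and leaving out the first or second IVF 1-cell library 1367 or 1322. Of the 4772 genes that rose in SCNT embryos 1152 rose more than in IVF embryos or moved against them, 801 rose less and 2819 did not pass. Of the 4245 that fell, 550 fell less, 424 fell more or moved against IVF embryos and 3271 did not pass. Opposite directions, both called and with the difference called, were found for 265 genes: 147 rose in SCNT and fell in IVF embryos, and 118 did the reverse. Among the 15 largest rises, 10 were lower and 2, Gstm1 and Nupr1, higher in SCNT than in IVF embryos by this test. The SCNT stage change that ranked these genes also enters the difference.

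Genes that rose and fell also differed in length along the genome. The median genomic span was 16.5 kb for genes that rose, 27.2 kb for those that fell and 20.8 kb for all tested. In the shortest 20% of genes 43.0% rose and 21.3% fell, and in the longest 20% of genes 22.9% rose and 42.6% fell. The switched-on genes had a median span of 12.2 kb. The same order was present in IVF embryos, where 42.7% of the shortest and 15% of the longest 20% rose. By chromosome the share that rose ran from 26.1% on chromosome 13 to 41.0% on chromosome 11, and on the X chromosome 35.2% rose and 30.5% fell. These shares are descriptions, since genes of a span class or a chromosome are not replicates.

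**Figure D5:**
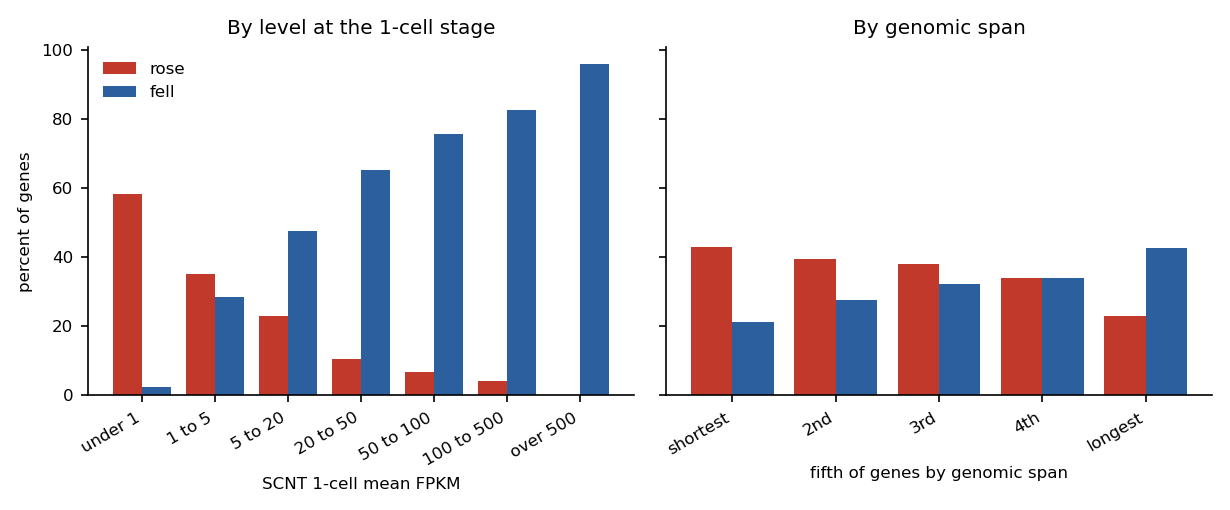
Percent of genes that rose (red) and fell (blue) from the SCNT 1-cell to the 2-cell stage, by mean FPKM at the 1-cell stage (left) and by genomic span in 5 equal classes (right). In FPKM as deposited, the share that rose goes from 58.3% under 1 FPKM to 0 over 500 FPKM. By span it goes from 43.0% in the shortest to 22.9% in the longest genes.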

How the data were processed

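RNA of lysed pooled embryos or of donor cells was made into cDNA with a low-input kit and read as single 50-base reads, per the labels' protocols. The authors deposited 1 table of FPKM per gene, and the submitters' processing notes name Novoalign, Cufflinks 2.0.2 and mm9, with the handling of multiply mapped reads not given in the sources used here. FPKM hold no read counts, so relative depth was read from the steps of low values. Of 23697 rows, 807 with a span under 250 bases were removed and 630 rows sharing a symbol were summed, leaving 22490 symbols. Tests covered the 13452 genes that reached 1 FPKM in 2 or more of the 14 libraries.

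Values were fitted as log2(FPKM + 1) with limma 3.58.1 in R 4.3.3, with all 7 groups in 1 fit (7 residual degrees of freedom), an intensity trend and Benjamini-Hochberg adjustment, and called at an adjusted p of 0.05. The spread was unequal between groups. A robust SD of log2 values between replicates was 0.088 in SCNT 1-cell, 0.177 in SCNT 2-cell and 0.372 in mutant Kdm4d embryos. The fit was tested on simulated data with the same spread in all groups. Alternatives were quantile normalization, equal sums, another pseudocount, other filters, other fits, a replicate block and leaving out each library.

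The text names, where separated and above 5 FPKM, the 15 largest rises and 15 largest falls, up to 10 genes of each class by level, and of each list the 3 largest called rises, 3 largest called falls and 3 most abundant members, as a selection. Members of small remainders (5 or fewer) and Mt2 were named after their values were seen. The genes and lists were chosen with earlier results of these data known. Shared stretches are 50-base words of GENCODE M21 transcripts found in more than 1 gene, sampled at 1 in 11. Promoter windows existed for fewer than 80% of tested genes, so a comparison of promoter letters between classes was void and is not given. Results for some genes are not reported here.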

Additional observations from a re-analysis of the deposited data

Results flagged for a closer look

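The change from the 1-cell to the 2-cell stage was tested for a difference between SCNT and IVF embryos, as an interaction in limma over the same libraries. It was higher in SCNT for 2225 genes and lower for 1704 at an adjusted p of 0.05. Of the 172 genes named above and looked at in this way, 82 passed, and their differences (SCNT change minus IVF change, in log2 units) are given here. Most were named for the size of their SCNT change, which enters the difference, and the oocytes of the 2 kinds of embryo differed in strain.

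Among genes that rose in SCNT embryos, positive differences were 5.98 for Gstm1, 4.59 for Impact, 2.79 for Rfc4, 2.59 for Sfmbt2, 2.49 for Atp5e and 2.43 for Ccnd2. Further positive ones were 2.18 for Ndufv3, 1.96 for Psme1, 1.77 for Mars, 1.77 for Nupr1, 1.68 for Psme2 and 1.65 for Sparc. The smallest were 1.47 for Atp5k, 1.10 for Aldoa, 1.04 for Chaf1b and 0.97 for Sebox. Negative differences among genes that rose were −3.63 for Gm11517, −2.96 for Obox6, −2.88 for Zfp352, −2.84 for Crxos1, −2.71 for Mak16 and −2.53 for Nop16. These were followed by −2.50 for Tob1, −2.49 for Gm4850, −2.43 for Psat1, −2.43 for Gja1, −2.31 for B020004C17Rik and −1.88 for Mt1. Lower in size were −1.79 for Polr1c, −1.76 for Prdx4, −1.69 for Trim43b, −1.63 for Hdac1, −1.56 for Nol11 and −1.52 for Trim43a. Further ones were −1.51 for Trim43c, −1.46 for Cct6a, −1.45 for Rps26, −1.43 for Nme2, −1.40 for Rpl41 and −1.35 for Cdc25c. The next were −1.32 for Pabpc1, −1.29 for Snrpd2, −1.27 for Dppa4, −1.20 for Kdm4c, −1.14 for Ccne1 and −1.08 for Gtf3c6. The smallest in size were −0.95 for Cbx3.

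Among genes that fell, positive differences were 2.68 for Psma7, 1.85 for Prdx1, 1.39 for Ndufa8, 1.29 for Sc5d, 1.24 for Serpine2 and 1.20 for Obox2. Other positive ones were 1.16 for A430033K04Rik, 0.96 for Pabpn1l and 0.90 for Slc7a11. Negative differences among genes that fell were −5.01 for Zscan4d, −5.00 for Akr1c18, −3.70 for AU022751, −3.12 for Phlda2, −2.63 for Tfap2c and −2.11 for H3f3b. After these came −2.02 for Gmnn, −1.86 for Dppa3, −1.77 for Magoh, −1.76 for D5Ertd577e, −1.73 for Obox5 and −1.73 for Arg2. Then there were −1.72 for Taf7, −1.64 for Rpl7a, −1.27 for Rbbp7, −1.17 for Setdb1, −1.04 for Fos and −1.01 for Fdx1. Smaller ones were −1.0 for Gtf2b, −0.95 for Pttg1, −0.92 for Slbp, −0.84 for Sall4, −0.79 for Ccnb1 and −0.54 for Eed. Genes that did not pass in SCNT embryos had differences of 0.80 for Canx and −0.78 for Gpbp1.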

How the results depend on the processing

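With all libraries scaled to equal sums, 2350 genes fell between the SCNT stages and 3440 were higher in SCNT than in IVF embryos, 743 genes were switched on and 23 lost, 0 IVF-activated and 1 donor-defined gene fell, and 468 of the 9017 called genes changed sign. After quantile normalization 5 IVF-activated genes fell, 38 donor-defined genes rose and 19 fell, and 93 called genes changed sign. With a pseudocount of 0.1, 10 donor-defined genes fell. With only the groups compared in the fit, 2 IVF-activated and 11 donor-defined genes fell, and 3795 genes were higher and 2619 lower in SCNT than in IVF embryos. With group weights these were 2, 3941 and 2655 (IVF-activated genes that fell, higher, lower). Directions of named genes reversed after quantile normalization for Canx (1.00), Foxn2 (1.15), Omt2a (1.82), Oog3 (0.40), Pan3 (0.94) and Psma7 (0.086), and with equal sums for Canx (0.60), Foxn2 (0.74), Pan3 (0.50) and Sc5d (0.035). The cause was not tested.

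Leaving out 1 library at a time gave 4079 to 4358 genes that rose and 3599 to 3755 that fell, 1322 to 1705 higher and 1175 to 1413 lower in SCNT than in IVF embryos, 456 to 514 switched on, 69 to 101 lost, 546 to 554 IVF-activated genes that rose and 0 to 1 that fell, and 47 to 61 donor-defined genes that rose and 1 to 5 that fell. No pairing by replicate number was seen in the values: deviations of same-numbered SCNT libraries correlated at r = 0.00096 over 13452 genes. This cannot tell whether same-numbered pools came from the same experiment. With the replicate block 4728 genes rose and 4223 fell, and 2117 were higher and 1634 lower in SCNT than in IVF embryos. In the block fit to the 4 SCNT libraries 5118 rose, 4483 fell and 2 IVF-activated genes fell. Depth limits genes near 0, for which FPKM give no counting error.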
